A study of Mus musculus with 4 samples.

Results

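Numbered zinc finger genes of the mouse, from Zfp700 to Zfp999, were followed across the cell types of the cortex in wildtype animals and in animals with a conditional knockout of Setdb1. Members were chosen by symbol alone: Zfp followed by a 3-digit number beginning with 7, 8 or 9 and at most 1 letter. The rule itself uses no measured value, but it was chosen with earlier results of these data known. The feature table lists 32285 genes, and 135 of them met the rule. All 135 were found in the GENCODE annotation of the mm10 assembly, each with a protein-coding transcript. They lie on 17 chromosomes, and 96 of them fall into 14 genomic clusters, defined here as 3 or more members that each start within 1 Mb of the previous member. The other 39 lie outside such clusters.

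Nuclei came from the cortex of C57BL/6 mice at 5 months of age. Wildtype animals (n = 2) were compared with animals whose genotype is given as Setdb1-CK-cKO (n = 2), called knockout here, and each animal gave 1 single-nucleus RNA library with 10x 3′ chemistry. The labels do not say what CK stands for, which cells lose Setdb1, which exons are removed, or whether the wildtype animals carry any allele of the cross. With n = 2 a p-value measures only the spread between these animals.

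Zinc finger proteins of the C2H2 type carry rows of fingers that each read a few bases of DNA. Many of the genes numbered from Zfp700 upward also encode a KRAB domain, which binds the corepressor TRIM28. TRIM28 in turn recruits SETDB1, a methyltransferase that writes H3K9 trimethylation, and the best known targets of this machinery are transposable elements. KRAB zinc finger genes multiply by tandem duplication, so close copies lie side by side on a chromosome. H3K9 trimethylation is also known to cover the clusters of zinc finger genes themselves.

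The 4 libraries held 11790 to 14493 barcodes and 38314394 to 45605971 UMIs (unique molecular identifiers, 1 per captured RNA molecule), and 51846 nuclei were kept. Any pair of libraries shared 48 to 64 barcodes. Nuclei were clustered without the members, and clusters were named from fixed marker lists as excitatory-like, inhibitory-like and so on; these class names are used below without the suffix. Excitatory neurons numbered 6784 and 7254 in wildtype 1 and 2 and 5798 and 7221 in knockout 1 and 2, with 3152 to 4046 UMIs in the median nucleus. Their 4 defining markers summed to 1245 to 1389 CPM in each library (UMIs of a gene per 1000000 UMIs of that class and library, after TMM scaling). Setdb1 stood at 68.8 and 64.3 CPM in wildtype and 69.6 and 65.8 CPM in knockout over all nuclei, which does not check the deletion because 3′ tags can come from outside the removed exons. Xist and the Y-linked genes gave knockout 1 a male and knockout 2 a female pattern, the reverse of the labelled sex of both animals; each genotype still held 1 male and 1 female library. Nuclei droplets also hold free RNA: the 4 excitatory markers summed to 539 to 764 CPM in oligodendrocytes, where they should be absent.

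In excitatory neurons every member that passed the test was higher in knockout. Of the 135 members, 120 had enough UMIs to be tested, and 13 of these rose in knockout (10.8%), none fell and 107 were not called (edgeR quasi-likelihood test on UMIs summed per animal, Benjamini-Hochberg adjusted p under 0.05 over 19126 genes). Over all genes tested, percent called was 3.04 for a rise and 1.36 for a fall. DESeq2 called 14 rises and 0 falls among the members, and 36 members had an unadjusted edgeR p under 0.05. For all 13 genes the lower knockout value exceeded the higher wildtype value, an order seen in 26.8% of all genes tested. The calls rest on these same libraries, so the order adds no support to them. The median log2 fold change of the 120 was 0.02, against 0.005 over all genes, and 97 of the 107 uncalled members lay within 0.5 of 0 on the log2 scale. A log2 fold change above 0 was seen in 65 of the 120 members and 50.7% of all genes. Numbered zinc finger genes below Zfp700 gave 3 rises and 3 falls among 244 tested. A sum over nuclei cannot tell more RNA per nucleus from more nuclei with the RNA. The 13 genes lay in a few places: 6 in a cluster on chromosome 4, 3 next to each other on chromosome 7, 2 close together on chromosome 13, and single genes on chromosomes 5 and 7.

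**Figure D1:**
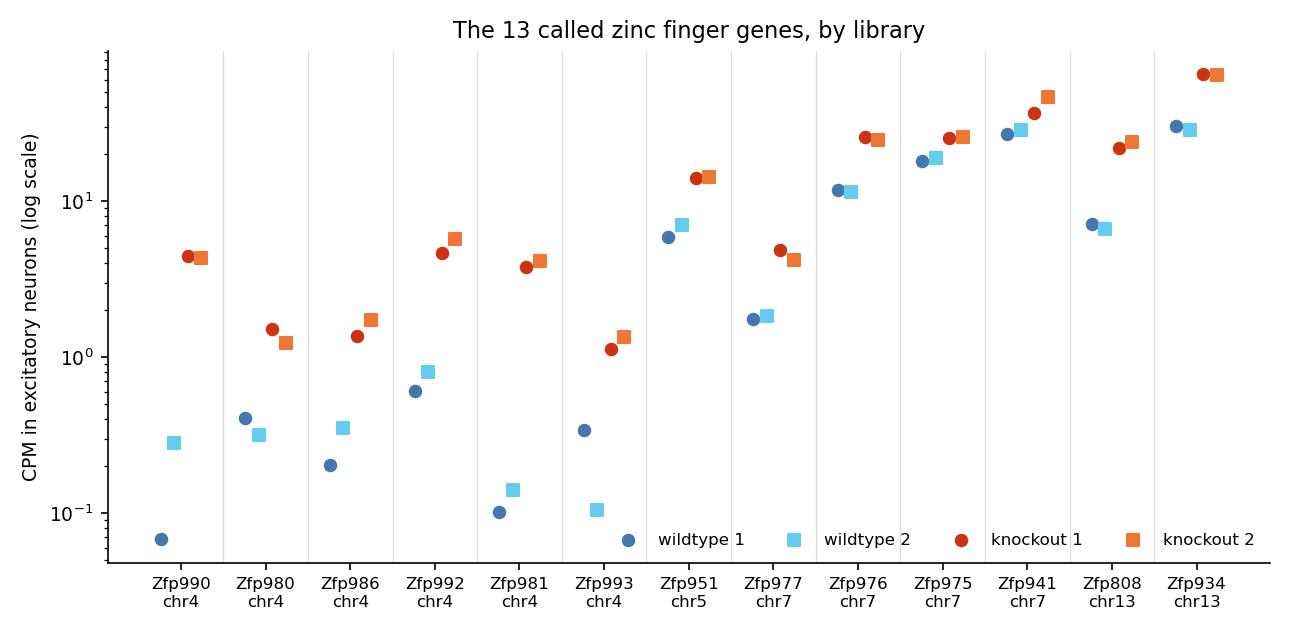
CPM of each of the 13 called genes in excitatory neurons, in genome order, on a log axis; each point is 1 library (2 wildtype in blue, 2 knockout in red and orange). In every gene both knockout points lie above both wildtype points, and the 6 genes on chr4 start from the lowest wildtype values, between 0.068 and 0.811 CPM.

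The cluster on chromosome 4 (chr4:145510759-147848366, mm10) held 16 members and gave the largest changes. Of the 10 that could be tested, 6 rose. All 10 lay above 0 on the log2 scale (median 2.17). Zfp981, Zfp990, Zfp986, Zfp993 and Zfp980 needed their knockout UMIs to pass the count filter. A member as low in wildtype that did not rise could not be tested, so the shared sign and the median follow in part from the filter. Each of the 16 carries a KRAB box pattern in a translated reading frame. Zfp981 (chr4:146502027-146539395, plus strand) was almost silent in wildtype, at 0.102 and 0.141 CPM from 3 and 4 UMIs. In knockout it stood at 3.78 and 4.16 CPM from 97 and 105 UMIs, a log2 fold change of 4.98 ± 0.32 (SE, adjusted p = 9.02e-05). Zfp990 (chr4:145510759-145539188) went from 0.068 and 0.282 CPM to 4.49 and 4.32 CPM, a log2 fold change of 4.63 ± 0.38 (adjusted p = 0.000346). Both genes were near absent in the wildtype libraries and at like levels in the knockouts, and they had the 2 largest log2 fold changes of all members tested here. Zfp992 had more wildtype RNA, 0.612 and 0.811 CPM, and reached 4.68 and 5.75 CPM (log2 fold change 2.87 ± 0.24, adjusted p = 0.000408).

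Zfp986, Zfp993 and Zfp980 rose from lower counts. Zfp986 had 0.204 and 0.352 CPM in wildtype and 1.36 and 1.75 in knockout (log2 fold change 2.47 ± 0.37, adjusted p = 0.0089). Zfp993 had 0.34 and 0.106 CPM in wildtype and 1.13 and 1.35 in knockout (2.44 ± 0.46, adjusted p = 0.0225). Zfp980 had 0.408 and 0.317 CPM in wildtype and 1.52 and 1.23 in knockout (1.91 ± 0.34, adjusted p = 0.0178). In none of the 3 did the genotypes overlap, but each rests on no more than 44 UMIs in any library. Zfp980 was not called by DESeq2 (adjusted p = 0.0561), and Zfp980 and Zfp993 were not called when genes of low count were kept in the test (0.0587 and 0.0883).

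The other 4 tested genes of the cluster were not called. Zfp991 had 1.12 and 1.8 CPM in wildtype and 2.77 and 4.2 in knockout (log2 fold change 1.26 ± 0.30, adjusted p = 0.052). Zfp982 had 0.748 and 1.13 against 2.19 and 1.67 CPM, and Zfp984 had 1.53 and 1.73 against 2.38 and 3.13 CPM. All 3 lay near the threshold and were called higher under some alternatives. Zfp991 was called by DESeq2, over all nuclei, without wildtype 2 and without knockout 1. Zfp982 was called over all nuclei, without wildtype 2 and without knockout 2, and Zfp984 without knockout 1. Zfp933, at the far end, had 43.1 and 39.7 CPM in wildtype and 44.2 and 45.2 in knockout, a log2 fold change of 0.11 ± 0.10 (adjusted p = 0.561). Along the chromosome the 6 called genes start within 1100 kb of the start of Zfp990, and the 4 uncalled ones start 1621 to 2312 kb from it. That split follows the threshold and does not hold under the alternatives that call Zfp991 or Zfp982. Zfp987, Zfp989, Zfp988, Zfp978, Zfp985 and Zfp979 were not tested, with at most 5 UMIs in any library.

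**Figure D2:**
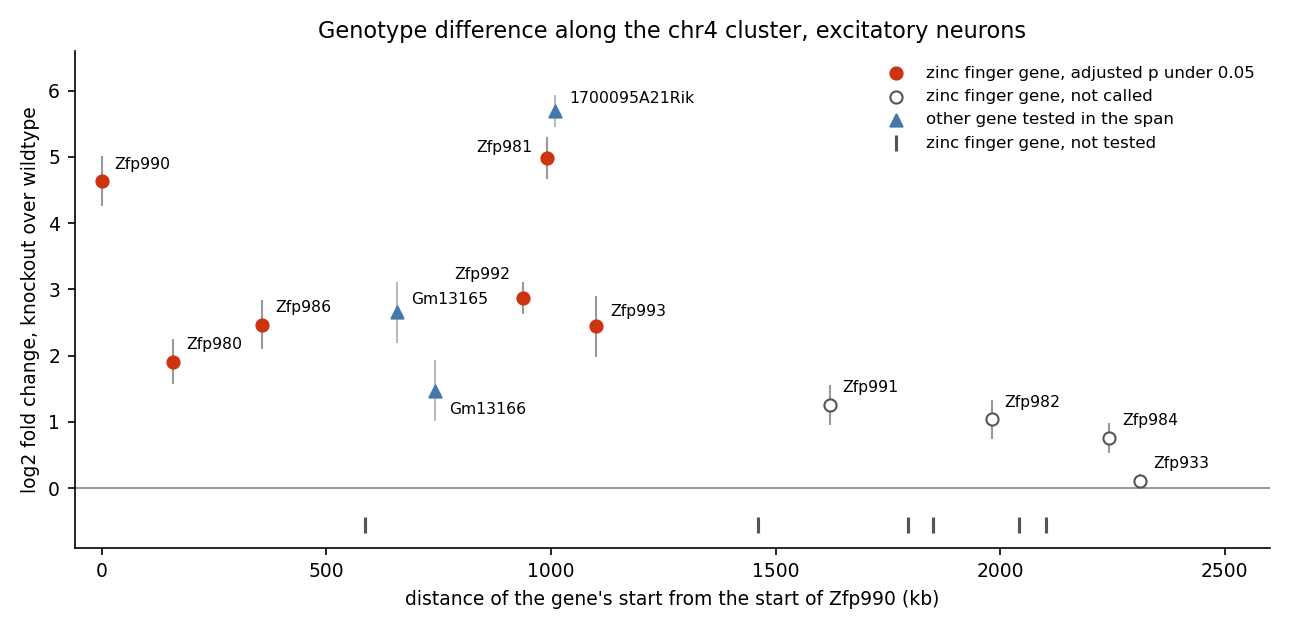
Log2 fold change of knockout over wildtype in excitatory neurons (bars, standard error) against the distance of each gene's start from the start of Zfp990, for the members of the chr4 cluster and the 3 other genes tested in its span; ticks at the bottom mark the 6 members not tested. All points lie above 0, the 6 called members lie in the first 1100 kb, and Zfp933 at 2312 kb lies at 0.11. Genes near silent in wildtype could be plotted only where their knockout UMIs passed the count filter.

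The 3 other genes with enough UMIs in the same span also lay above 0, and 2 of them rose. They too needed their knockout UMIs to pass the count filter. The antisense RNA 1700095A21Rik, which overlaps Zfp981 on the opposite strand, had 0.272 and 0.458 CPM in wildtype and 16.8 and 21.3 in knockout (log2 fold change 5.69 ± 0.25, adjusted p = 7.55e-06). Gm13165, another antisense RNA, rose from 0.102 and 0.141 to 0.819 and 0.753 CPM (log2 fold change 2.65, adjusted p = 0.0157), and Gm13166 was not called (1.47, adjusted p = 0.118). How the counting used strand is not given in the sources used here, so reads of Zfp981 and of 1700095A21Rik may not be fully told apart. Other annotated genes overlap members too. Gm13239 lies on the strand of Zfp980 and Gm26624 on that of Zfp991, and Gm26573 lies opposite Zfp992, Zfp981 and Zfp993. Reads there may likewise be hard to tell apart. Within 1 Mb on either side of the cluster, 2 of 28 genes tested were called, Draxin (an axon guidance cue) and Tnfrsf8 (the receptor CD30), both higher in knockout. Close copies limit the counting too: 72.5% of the 90-base windows of Zfp986, 74.6% of those of Zfp993 and 49.2% of those of Zfp980 occur in another gene's transcripts, against 3.59% for Zfp990 and 16.2% for Zfp981. Reads from such windows may be dropped or assigned among copies.

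Promoter sequence of these genes was compared because neighbours moved together. RefSeq promoters (GRCm38.p6, 250 bases before to 50 after the annotated start) were found for 115 of the 135 members; Zfp990, Zfp992, Zfp986 and Zfp934 had no entry. RefSeq and GENCODE starts can differ: the RefSeq promoter of Zfp981 lies inside the GENCODE span given above, as does that of Zfp993 (chr4:146512599-146512898), whose own GENCODE span is chr4:146610961-146658160. In the chr4 cluster 7 of them (Zfp980, Zfp987, Zfp981, Zfp988, Zfp985, Zfp979 and Zfp984) were 69.7% to 91% identical to each other, with a median of 81.3%, while the median over all member pairs was 50%. The longest run shared by all 7 is printed in capitals below. Searched on both strands, that run of 15 bases occurred in 12 of 32851 promoters (0.0365%), and all 12 lie in the span of this cluster, among them Zfp982 and the related genes Rex2, Zfp534 and Zfp600. Zfp933 lacked the run, and its promoter was 49.7% to 53% identical to the 7. The sequences shown are a called gene at each of 2 places in the cluster, an untested copy at its other end, and Zfp933, which was not called; they run 5′ to 3′ along each gene's own strand.
Zfp980 (chr4:145670447-145670746, plus strand): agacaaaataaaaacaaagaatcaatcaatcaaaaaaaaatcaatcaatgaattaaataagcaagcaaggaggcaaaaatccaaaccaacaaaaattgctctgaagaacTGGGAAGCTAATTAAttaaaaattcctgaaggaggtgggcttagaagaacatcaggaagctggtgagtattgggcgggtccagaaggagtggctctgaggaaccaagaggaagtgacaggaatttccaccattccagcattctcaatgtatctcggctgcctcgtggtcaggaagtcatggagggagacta
Zfp981 (chr4:146514670-146514969, plus strand): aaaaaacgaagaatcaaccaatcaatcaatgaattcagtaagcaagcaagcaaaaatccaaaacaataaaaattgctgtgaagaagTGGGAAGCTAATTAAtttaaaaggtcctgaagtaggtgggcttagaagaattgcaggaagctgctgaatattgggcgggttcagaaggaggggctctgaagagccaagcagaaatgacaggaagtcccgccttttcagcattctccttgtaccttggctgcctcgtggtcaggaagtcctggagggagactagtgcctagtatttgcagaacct
Zfp979 (chr4:147642459-147642758, minus strand): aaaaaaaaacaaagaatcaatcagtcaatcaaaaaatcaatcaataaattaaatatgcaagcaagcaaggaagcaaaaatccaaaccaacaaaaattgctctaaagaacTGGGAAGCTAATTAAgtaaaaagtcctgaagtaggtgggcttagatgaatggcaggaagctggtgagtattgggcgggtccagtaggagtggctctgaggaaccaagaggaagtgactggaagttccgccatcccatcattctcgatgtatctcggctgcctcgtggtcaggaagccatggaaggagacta
Zfp933 (chr4:147848369-147848668, minus strand): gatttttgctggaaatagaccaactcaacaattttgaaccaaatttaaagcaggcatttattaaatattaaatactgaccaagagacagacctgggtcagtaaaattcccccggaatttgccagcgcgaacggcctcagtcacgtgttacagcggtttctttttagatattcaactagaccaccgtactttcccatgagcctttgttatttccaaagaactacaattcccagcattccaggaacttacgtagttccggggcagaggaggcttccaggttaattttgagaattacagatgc
The shared run was not limited to genes called in the main test. Zfp980 and Zfp981 hold it and rose, while Zfp982 and Zfp984 hold it and were called only under some alternatives. The copies Zfp979, Zfp985, Zfp987 and Zfp988 hold it and stayed under the count needed for a test. Zfp993 rose and its RefSeq promoter lacks the run. That promoter lies outside the gene's own GENCODE span, so it does not show whether the counted gene holds the run.

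In 1 cluster on chromosome 7, 3 members rose, and they follow each other along the chromosome (chr7:42579783-42692742, minus strand). Zfp976 had 11.8 and 11.4 CPM in wildtype and 25.9 and 24.6 in knockout (log2 fold change 1.12 ± 0.11, adjusted p = 0.00083). Zfp977 had 1.77 and 1.83 against 4.88 and 4.2 CPM (1.33 ± 0.19, adjusted p = 0.00744). Zfp975 had 18.2 and 18.8 against 25.4 and 25.7 CPM (0.46 ± 0.10, adjusted p = 0.0398). The genotypes did not overlap in any of the 3, and replicates lay close together. The call of Zfp975 was lost when any library but knockout 1 was left out: its adjusted p was 0.262 without wildtype 1, 0.0896 without wildtype 2 and 0.0564 without knockout 2. It was also lost with genes of low count kept (0.104) and over all nuclei (0.0659). The rest of the cluster (chr7:41633203-43618285, 8 members) had 3 tested members that were not called. Zfp788 had 8.6 and 9.34 CPM in wildtype and 9.44 and 8.45 in knockout. Zfp719 had 11.9 and 11.7 against 12.6 and 11.1 CPM, and Zfp715 had 6.59 and 6.59 against 5.93 and 6.11 CPM. Zfp936 and Zfp819 were not tested, with at most 8 UMIs in a library. Of the 8 other genes tested in the span, Gm44997 was called, from 5.71 and 4.34 CPM to 12.1 and 12.7 CPM (log2 fold change 1.30).

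The promoters of Zfp975, Zfp976, Zfp977 and the untested Zfp936 were 72.3% to 91.3% identical to each other and shared a run of 21 bases, found in 5 of 32851 promoters. The promoters of the called Zfp977 and Zfp976 are shown with that run in capitals. Beside them is the promoter of Zfp971, from a chr2 cluster in which none of 8 members tested was called. In that cluster 9 promoters were as alike (67.3% to 100% identical). The capitals in Zfp971 mark the run of 30 bases those 9 share, which occurred in 33 of 32851 promoters.
Zfp977 (chr7:42592496-42592795, minus strand): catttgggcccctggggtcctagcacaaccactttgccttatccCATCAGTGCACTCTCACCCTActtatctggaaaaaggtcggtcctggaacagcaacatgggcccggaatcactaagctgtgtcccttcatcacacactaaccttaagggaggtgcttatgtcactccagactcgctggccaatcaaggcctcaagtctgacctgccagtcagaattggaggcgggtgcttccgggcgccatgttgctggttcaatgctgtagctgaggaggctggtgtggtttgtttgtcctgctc
Zfp976 (chr7:42642555-42642854, minus strand): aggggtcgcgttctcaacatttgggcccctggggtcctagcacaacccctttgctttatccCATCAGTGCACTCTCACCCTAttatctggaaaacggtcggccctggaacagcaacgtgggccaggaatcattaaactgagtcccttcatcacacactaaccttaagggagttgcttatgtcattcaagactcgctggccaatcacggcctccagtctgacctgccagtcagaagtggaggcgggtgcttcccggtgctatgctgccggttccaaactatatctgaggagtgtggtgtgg
Zfp971 (chr2:178023034-178023333, plus strand): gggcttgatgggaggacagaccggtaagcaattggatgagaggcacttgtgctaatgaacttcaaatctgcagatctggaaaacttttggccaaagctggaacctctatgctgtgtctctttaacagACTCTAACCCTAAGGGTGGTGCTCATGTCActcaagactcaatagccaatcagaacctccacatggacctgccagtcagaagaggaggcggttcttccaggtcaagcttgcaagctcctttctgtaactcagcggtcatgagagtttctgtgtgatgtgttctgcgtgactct
Called genes fell in the promoter families on chr4 and chr7, while the chr2 cluster had 0 calls among 8 members tested. Percent called higher over all genes was 3.04, so 0 of 8 does not set the chr2 family apart.

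Zfp808 and Zfp934 lie close to each other on chromosome 13 (chr13:62129886-62236144 and chr13:62479827-62571199) and form no cluster by the rule used here, since no other member starts within 1 Mb. Zfp808 had 7.21 and 6.63 CPM in wildtype and 22 and 24.1 in knockout, a log2 fold change of 1.74 ± 0.12 (adjusted p = 0.00015). Zfp934 had 30.5 and 28.8 CPM in wildtype and 65.5 and 64.2 in knockout, a log2 fold change of 1.13 ± 0.09 (adjusted p = 0.000377). These were among the best counted of the 13, with 188 to 609 UMIs for Zfp808 and 817 to 1678 for Zfp934 in each library. The genes share 14.7% and 19.3% of their 90-base windows with each other, so some reads may fit both. All 3 other genes tested in the stretch between and across them were called higher (Gm3604, Gm19792 and Gm49359), as were 3 of 9 within 1 Mb outside it (Gm48228, Platr25 and Gm5141); this stretch was singled out after its values were seen.

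Another pair of genes rose away from any cluster. Zfp951 (chr5:104813169-104860070) had 5.88 and 7.08 CPM in wildtype and 14.1 and 14.2 in knockout (log2 fold change 1.13 ± 0.14, adjusted p = 0.00293). Zfp941 (chr7:140807449-140822178) had 27.1 and 28.8 CPM in wildtype and 37 and 46.8 in knockout (0.58 ± 0.13, adjusted p = 0.0422). Knockout 2 stood above knockout 1 for Zfp941, and its call was lost without wildtype 1 (adjusted p = 0.0592), without knockout 2 (0.0656), with genes of low count kept (0.132) and over all nuclei (0.0603).

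**Figure D3:**
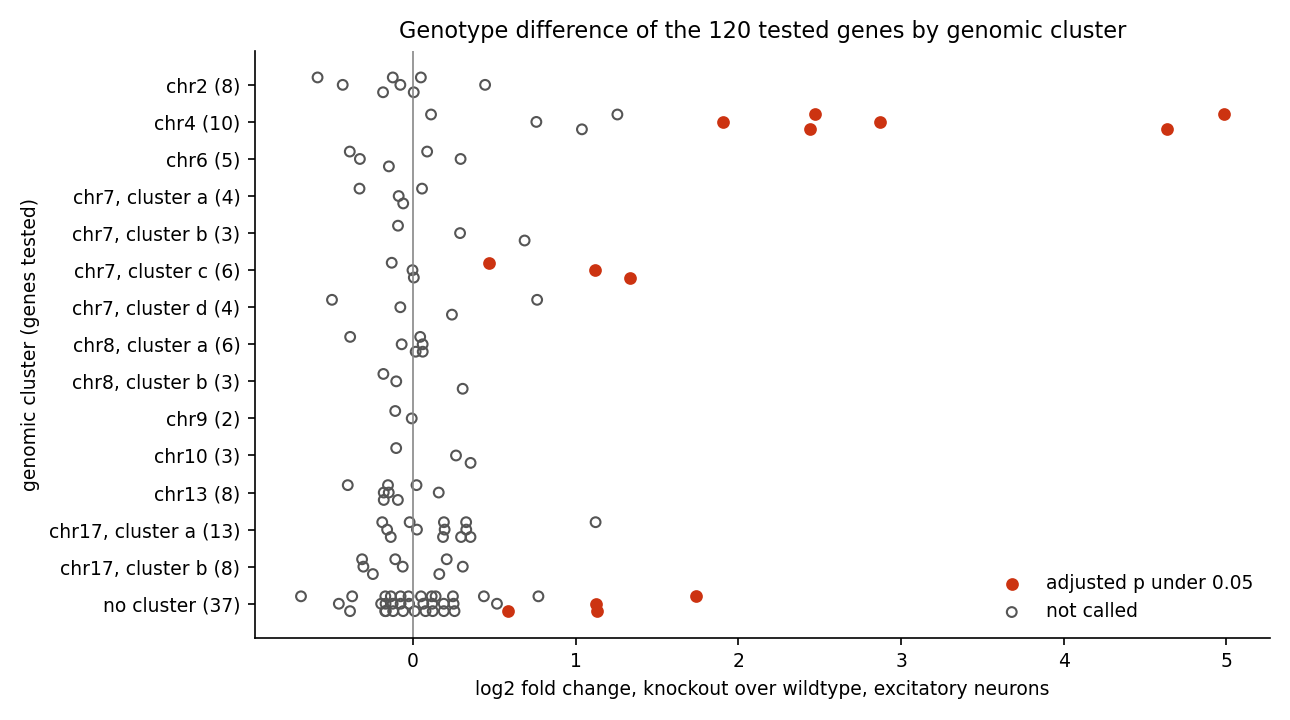
Log2 fold change of knockout over wildtype in excitatory neurons for the 120 tested members, 1 circle per gene, by genomic cluster (letters number the clusters of 1 chromosome in genome order; genes tested in parentheses). Filled circles are the 13 called genes: 6 of 10 on chr4, 3 of 6 in chr7 cluster c and 4 of 37 outside clusters, with 0 in the other 12 clusters. Over all genes tested, 3.04% were called higher.

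In 12 of the 14 genomic clusters no member was called, with 67 of their 72 members tested. Percent called over all genes was 3.04 for a rise and 1.36 for a fall, so 0 calls do not set any 1 of these clusters apart. The largest was on chromosome 17 (chr17:21567008-22867134), with 13 members, all tested, 9 of them above 0 and a median log2 fold change of 0.19. Its summed level was 137 and 137 CPM in wildtype and 157 and 149 in knockout. Zfp820 stood highest there, at 0.544 and 0.811 CPM in wildtype and 1.33 and 1.63 in knockout (log2 fold change 1.12 ± 0.31, adjusted p = 0.0856), and was called without knockout 1 (adjusted p = 0.0341). Zfp947 had 0.714 and 0.67 against 0.858 and 0.912 CPM, and Zfp760, the lowest, 5.34 and 4.3 against 4.49 and 3.96 CPM. Of the 6 other genes tested in that span 2 were called higher, Vmn2r112 (a vomeronasal receptor) and Gm5493.

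The second chr17 cluster (chr17:32765496-33307241, 8 members) had a median of -0.09. Zfp799 had 90.7 and 93.8 CPM in wildtype and 102 and 126 in knockout (log2 fold change 0.31 ± 0.10, adjusted p = 0.138) and was called without knockout 1 (0.00196). Zfp955a had 17 and 13.8 against 19.7 and 15.7 CPM, and Zfp811 had 9.96 and 10.2 against 7.96 and 8.25 CPM. Here the members did not share a sign. The chr13 cluster (chr13:67038596-67687071, 8 of 9 tested) lay a little below 0, with a median of -0.15. Zfp729b had 8.09 and 9.3 against 9.17 and 10.2 CPM, Zfp712 had 2.52 and 2.68 against 2.81 and 2.46 CPM, and Zfp748 had 3.81 and 3 against 2.69 and 2.46 CPM. None of these differences passed the test, while that of the antisense RNA Gm46440 inside the span did, from 11.4 and 13.1 to 20.4 and 24.7 CPM.

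The chr2 cluster (chr2:174643534-178078476) also holds many copies, with 11 members and the alike promoters above. It gave 0 calls among 8 tested (percent called over all genes 3.04 for a rise and 1.36 for a fall) and a median log2 fold change of -0.10. Its summed level was 79.6 and 87.4 CPM in wildtype and 75.3 and 87.7 in knockout, most of it from Zfp831 (56.7 and 65.5 against 54.5 and 68 CPM). Zfp968 had 0.408 and 0.282 against 0.624 and 0.317 CPM, Zfp972 had 1.43 and 2.12 against 2.15 and 1.51 CPM, and Zfp970, the lowest, had 1.9 and 1.59 against 1.01 and 1.31 CPM (log2 fold change -0.59 ± 0.26, adjusted p = 0.249). None of the 22 other genes tested in its span was called.

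On chromosome 6 (chr6:47819266-48623227, 5 tested) Zfp956 had the lowest log2 fold change, -0.39 ± 0.11, from 18.6 and 18.6 CPM in wildtype to 13.7 and 14.7 in knockout (adjusted p = 0.0933). Zfp746, which encodes PARIS, a repressor degraded through parkin, had 24.1 and 22.1 against 24.1 and 25 CPM. Zfp775 had 4.69 and 4.05 against 3.94 and 6.78 CPM and was called without knockout 1 (adjusted p = 0.0402). On chromosome 9 (chr9:22188090-22307648, 2 of 3 tested) Zfp809, known to silence retroviruses that use the proline tRNA primer site, had 21.7 and 22 against 22.4 and 21.1 CPM. Its neighbour Zfp810 had 28.3 and 28.3 against 26.9 and 25.6 CPM. The retroviral silencer and its neighbour had log2 fold changes of -0.01 and -0.11.

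The other chr7 clusters were also without a call. At chr7:27907392-28014115 (3 tested) Zfp850 had 12.6 and 17.3 CPM in wildtype and 18.8 and 29.3 in knockout (log2 fold change 0.69 ± 0.22, adjusted p = 0.12). It was called by DESeq2 (0.0383), without wildtype 2 (0.000689) and without knockout 1 (0.00047). Zfp974 had 15.4 and 17.1 against 20.1 and 19.5 CPM and Zfp780b 13.9 and 14.8 against 13.2 and 13.8 CPM. At chr7:127244274-127406822 (4 tested) the genotypes did not overlap for Zfp771, at 56 and 58.6 against 65.2 and 70.1 CPM, or for Zfp764, at 0.408 and 0.352 against 0.702 and 0.595 CPM. Both knockouts lay above both wildtypes in 26.8% of all genes tested. Zfp747 had 0.646 and 1.2 against 0.585 and 0.714 CPM. At chr7:6131491-7209998 (4 tested) Zfp772 had 4.49 and 4.79 against 4.56 and 5.08 CPM, Zfp954 2 and 1.73 against 1.6 and 1.98 CPM, and Zfp773 0.68 and 1.06 against 0.546 and 0.833 CPM. These 3 overlapped between genotypes.

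The remaining clusters lie on chromosomes 8 and 10. At chr8:69209038-69791178 (6 tested) Zfp866 had 14 and 14.3 against 14.6 and 14.9 CPM, Zfp869 had 21.9 and 20.4 against 23.9 and 20.1 CPM, and Zfp930 had 6.76 and 7.86 against 4.92 and 6.26 CPM. Their summed level, 62.3 and 60.1 against 61.3 and 60.6 CPM, gave the log2 ratio nearest 0 of the 14 clusters (-0.01). At chr8:71882019-71993792 (3 tested) Zfp709 had 2.04 and 2.29 against 2.73 and 2.62 CPM, Zfp882 had 3.67 and 4.16 against 2.81 and 4.48 CPM, and Zfp961 had 36 and 26.3 against 27.3 and 27.6 CPM. Wildtype 1 stood apart for Zfp961. At chr10:81901911-82241280 (3 tested) Zfp873 had 8.26 and 7.65 against 10.5 and 9.79 CPM, Zfp938 had 12.7 and 10.9 against 15 and 13.3 CPM, and Zfp781 had 1.77 and 1.45 against 1.21 and 1.78 CPM. The first 2 of these lay higher in both knockouts without passing the test.

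Outside the clusters 37 of 39 members were tested and 4 rose, the chr13 pair, Zfp951 and Zfp941. The 6 members with the highest wildtype CPM in excitatory neurons were Zfp804b, Zfp804a, Zfp950, Zfp799, Zfp704 and Zfp827, and none of them was called. Zfp804a, the homologue of a human gene linked to schizophrenia, encodes a protein with a single finger and no KRAB domain. It had 129 and 128 CPM in wildtype and 127 and 102 in knockout, and was called lower without knockout 1 (adjusted p = 0.0141). Its relative Zfp804b had 218 and 217 against 186 and 212 CPM. Zfp950 had 125 and 123 against 127 and 129 CPM, Zfp704 had 87.5 and 94.8 against 97.4 and 101 CPM, and Zfp827 had 77.3 and 76.8 against 69.9 and 64.6 CPM. The lowest log2 fold change of all members was that of Zfp703, -0.69 ± 0.19, from 4.55 and 5.92 to 3.36 and 3.13 CPM (adjusted p = 0.0839); it was called lower without wildtype 1 and without knockout 1. The 15 untested members, 13 of them in clusters, had at most 10 UMIs in any library, and 2 had 0 in all 4.

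The 13 calls were also read by wildtype level. Of 33 tested members under 3 CPM in wildtype, 7 rose (all genes in that range, 4.86% rose). Zfp981, Zfp990, Zfp986, Zfp993 and Zfp980 were tested in this range only because their knockout UMIs passed the count filter. The filter acts in the same way on all genes there, so both shares are partly set by it. From 3 to 30 CPM, 6 of 72 rose (2.44% of all genes), and above 30 CPM, 0 of 15 (2.01%). The KRAB pattern (phenylalanine, then S, T, R, A or K, 1 or 2 residues, and EEW) was found in all 13 called genes, in 61 of 107 uncalled ones and in 87 of 135 members. The number of C2H2 fingers had a median of 11 in called and in uncalled genes alike. A share of 18.3% of the 90-base windows of the median called gene occurred in another gene, against 0% for the median uncalled one, so the median called gene had more sequence in common with another gene. These features were not tested.

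The partners of KRAB proteins were read beside the members from a list of 30 genes for H3K9 methylation, its readers, DNA methylation and SUMO. Of the 29 tested in excitatory neurons 1 rose (3.45%) and none fell, near the shares over all genes (3.04% for a rise and 1.36% for a fall). That gene was Atf7ip, whose protein stabilises SETDB1 in the nucleus, with 64.1 and 72 CPM in wildtype and 121 and 125 in knockout (log2 fold change 0.85 ± 0.09, adjusted p = 0.00101). Trim28 had 14.2 and 15.1 against 13.2 and 13.8 CPM and Setdb1 had 72.7 and 67.6 against 71 and 67.1 CPM. Markers of other cells were read in the same excitatory sums. The 4 endothelial markers summed to 4.52 and 5.75 CPM in wildtype and 37.4 and 39.7 in knockout, nearly all of it Pecam1 (3.2 and 3.95 against 35.7 and 36.8 CPM), while Flt1, Cldn5 and Adgrl4 stayed under 1.6 CPM in every library. The 5 microglial markers went from 108 and 117 to 129 and 137 CPM, those of oligodendrocytes from 172 and 178 to 154 and 153 CPM, and those of astrocytes and precursors lay at 27.2 to 36.5 and 12 to 14.7 CPM. Their part in the members' rise was not tested.

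The rises were then followed over 10 groups of excitatory nuclei, 6 of them named by layer and projection (IT, intratelencephalic; ET, extratelencephalic; NP, near-projecting; CT, corticothalamic). These groups make up the pooled class and are no independent test of it. Zfp934 was called in all 10, with log2 fold changes from 0.74 to 1.75. Zfp808 was called in 7 of the 8 groups where it could be tested (1.12 to 2.22), Zfp976 in 6 of 9 and Zfp981 in 5 of 5. Wildtype had at most 2 UMIs of Zfp981 in each of these 5. Zfp981, like Zfp990, could thus be tested only in groups where its knockout UMIs passed the count filter, so a call in every tested group follows in part from the filter. In L2/3 IT it had 0 and 0 against 18 and 22 in knockout, at least 13.5-fold higher when wildtype is set to 3 UMIs over the group, and in L6 CT the ratio was 28.6 (95% counting interval 4.68 to 1174). Zfp992 was called in 4 of 5, Zfp990 in 2 of 2 (L2/3 IT and L4/5 IT), Zfp951 in 2 of 8, and Zfp977 and Zfp941 in 1 each. Zfp975 was called in none of 10, and Zfp980, Zfp986 and Zfp993 had too few UMIs to be tested in any. Members higher in knockout were 7 of 102 tested in L2/3 IT nuclei (percent called over all genes 1.27), 7 of 106 in L4/5 IT nuclei (2.03), 6 of 78 among L5 ET nuclei (1.3) and 5 of 95 among L6 CT nuclei (2.3). They were 1 of 34 in L5/6 NP (0.999) and 1 of 26 in L6b (0.604), and in the 4 groups without a layer name 5 of 98 (1.98), 3 of 76 (1.62), 3 of 69 (1.14) and 1 of 82 (0.449). The named groups differ in depth, and only the pooled class tests all 13 genes. Apart from the 13, Zfp820 rose in L4/5 IT (1 and 1 UMIs in wildtype, 10 and 11 in knockout, a ratio of 11.7 with a 95% counting interval of 2.86 to 103; adjusted p = 0.0245), and Zfp804b fell in L6 CT (-0.49; percent called lower 0.929) and in 1 group without a layer name (-0.59; 0.447). Fewer nuclei per group means fewer testable members, so a missing call in a small group is not a difference.

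**Figure D4:**
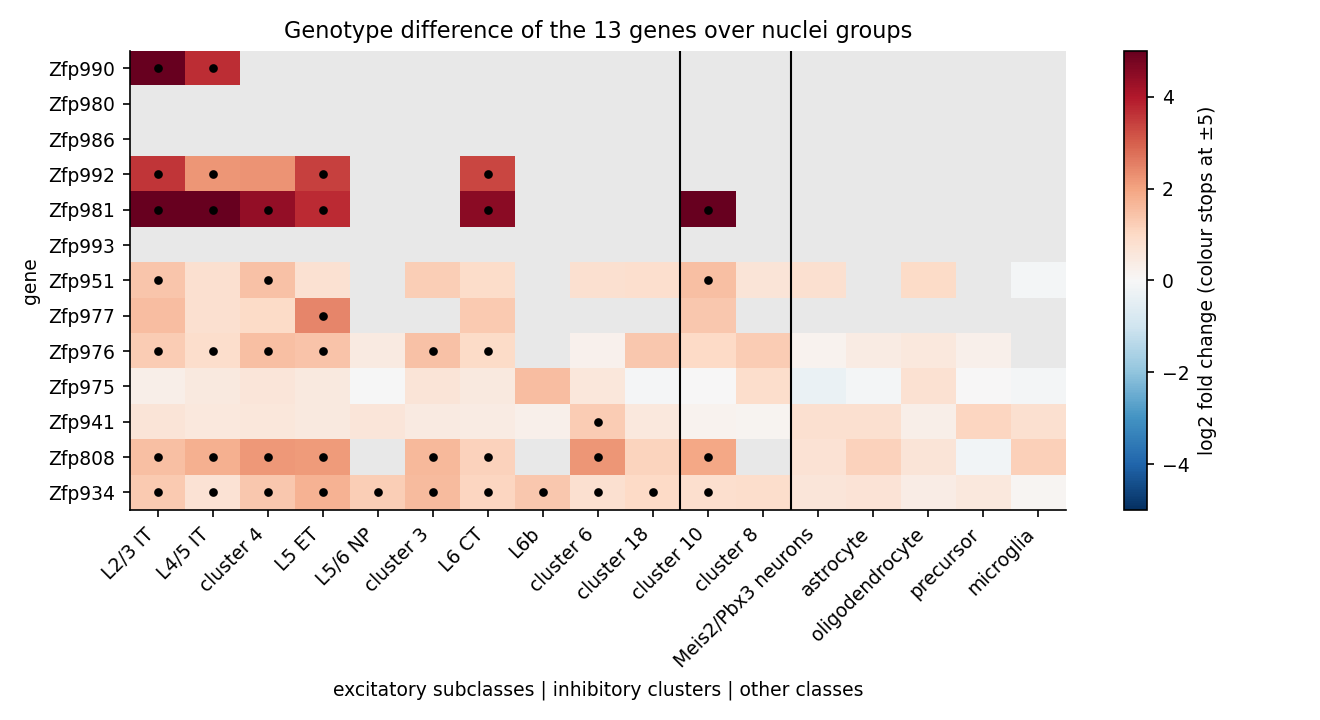
Log2 fold change of knockout over wildtype (colour, stopping at 5 either way) for the 13 genes in the 10 excitatory groups, the 2 inhibitory clusters and 5 other classes; black dots mark adjusted p under 0.05 and grey cells were not tested. Zfp934 carries a dot in all 10 excitatory groups, and no dot falls in the 5 other classes.

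Inhibitory neurons (943 to 1271 nuclei per library) gave fewer calls. Of 97 members tested 4 rose and none fell (percent called over all genes 0.846 for a rise and 0.298 for a fall), with 15 at an unadjusted p under 0.05. In its 2 clusters taken singly, 4 of 89 (0.613) and 0 of 69 (0.415) rose. Zfp981 had 0 and 0 UMIs in wildtype and 19 and 19 in knockout (5.29 and 4.88 CPM), which is at least 13.8-fold higher when wildtype is set to 3 UMIs over the group (adjusted p = 0.00152). Zfp934 had 29.1 and 32 CPM in wildtype and 51.7 and 58.6 in knockout (log2 fold change 0.85 ± 0.15, adjusted p = 0.00991). Zfp808 had 3.71 and 5.37 against 11.7 and 15.7 CPM (1.59 ± 0.29, adjusted p = 0.0147), and Zfp951 had 5.93 and 6.11 against 12.5 and 14.6 CPM (1.17 ± 0.25, adjusted p = 0.0394). All 4 were also called in excitatory neurons. The genotypes did not overlap in any of the 4, but the calls rest on these same libraries, so that order adds no support. The share of all genes with that order was not read in this class. Zfp992 had 3 and 1 UMIs in wildtype and 10 and 18 in knockout (adjusted p = 0.0502). A direct test of the genotype effect between inhibitory and excitatory neurons called 0 of 119 members by edgeR (8 at an unadjusted p under 0.05; percent called over all genes 0.353 higher and 0.401 lower), which does not show that the effects are equal. The inhibitory count was 1 without wildtype 1 and 11 without knockout 1; without wildtype 1 the adjusted p was 0.122 for Zfp808, 0.0861 for Zfp934 and 0.216 for Zfp951. Zfp951 also lost its call without wildtype 2 (0.1), without knockout 2 (0.108) and by DESeq2 (0.447), and Zfp808 by DESeq2 (0.116).

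Other classes held few testable members and almost no call. None was called by edgeR among 74 members tested in astrocytes (6 at an unadjusted p under 0.05), 49 in precursors of oligodendrocytes (2), 49 in microglia (3) and 73 in a group of Meis2 and Pbx3 neurons (3); DESeq2 called 0 in each. Percent called over all genes was 0.246 for a rise and 0.0246 for a fall in astrocytes, 0.0217 and 0 in precursors, 0.123 and 0.078 in microglia, and 0 and 0 in the Meis2 and Pbx3 group. The 1 member tested in mural cells was not called (0 and 0 over all genes). Astrocytes fell into a pair of clusters of which 1 was mostly from knockout (14 and 28 nuclei in wildtype, 202 and 378 in knockout), and with the other cluster alone the count was also 0. In oligodendrocytes 1 of 82 members fell (percent called over all genes 0.397 for a fall, 0.283 for a rise). That was Zfp804a, from 39.6 and 37.2 to 18.6 and 18.5 CPM (log2 fold change -1.05 ± 0.23, adjusted p = 0.0466), and its call was lost without wildtype 1 (0.152), knockout 1 (0.0544) or knockout 2 (0.0514). In fibroblasts 1 of 3 members fell (percent called 1.72 for a fall, 0.457 for a rise), Zfp804b, from 27 and 22 UMIs to 4 and 3 (log2 fold change -2.18 ± 0.54, adjusted p = 0.0199; 0.358 without wildtype 1, 0.133 without knockout 1, 0.349 without knockout 2). Both genes were high in neurons, and the 4 excitatory markers in the same sums went from 640 and 764 to 539 and 668 CPM in oligodendrocytes and from 1014 and 1153 to 656 and 744 CPM in fibroblasts; the part of free neuronal RNA in these falls was not tested.

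The chr4 genes were too sparse to test singly outside neurons, so their level was summed. Zfp933 made up most of the cluster's 47.5 CPM in wildtype excitatory neurons and had a log2 fold change of 0.11 there, so it was left out after the values were seen. The other 15 summed to 5.23 and 6.94 CPM in wildtype excitatory neurons and 24.7 and 28.2 in knockout, 4.35-fold more. The sum was 5.30-fold higher in inhibitory neurons, 4.32-fold in the Meis2 and Pbx3 group, 4.27-fold in astrocytes and 3.02-fold in oligodendrocytes, with both knockouts above both wildtypes in each. In precursors it went from 9.71 and 12 to 21.2 and 15.8 CPM, from at most 11 UMIs in a library. In microglia wildtype already had 48.9 and 27.8 CPM, and knockout had 43.7 and 67.3, which overlap. Across the 10 excitatory groups the sum was 3.33-fold (L5/6 NP) to 6.68-fold (L5 ET) higher. These ratios are descriptions with no test. Oligodendrocytes had 10 and 11 UMIs of these genes in wildtype and 23 and 21 in knockout, and droplets of every class hold free RNA in which neuronal RNA is plentiful; its part was not tested.

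**Figure D5:**
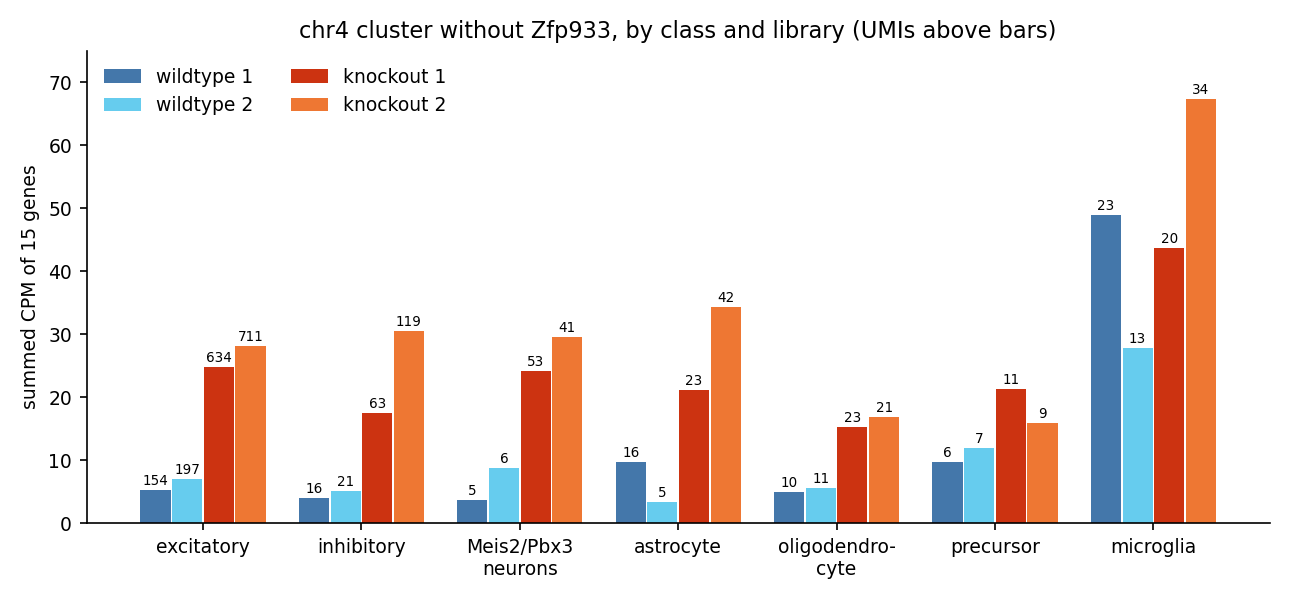
Summed CPM of the 15 chr4 cluster genes other than Zfp933, by class, 1 bar per library, with the UMIs behind each bar above it. Knockout bars (red, orange) stand above both wildtype bars in all classes shown but microglia, where 20 UMIs in knockout 1 give 43.7 CPM against 48.9 CPM in wildtype 1.

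Shares of nuclei with a UMI were read for Zfp934 and Zfp808. Zfp934 was seen in 11.5% and 10.1% of wildtype excitatory nuclei and in 23.1% and 19.1% of knockout ones. Thinned to 1000 UMIs per nucleus, which leaves out 16 to 46 shallower nuclei per library, the wildtype shares were 2.88% (exact 95% interval 2.49 to 3.31) and 3.02% (2.63 to 3.44). The knockout shares were 6.02% (5.42 to 6.66) and 6% (5.46 to 6.57). In oligodendrocytes, where 608 to 1105 nuclei per library were too shallow, the thinned shares were 2.93% and 3.53% against 4.44% and 2.99%, with overlapping intervals; knockout 2 lay below wildtype 2, although the summed level there was higher in both knockouts. Thinned shares of Zfp934 were also higher in both knockouts in inhibitory neurons (3.24% and 3.48% against 5.02% and 6.17%) and astrocytes (6.89% and 5.33% against 9.16% and 9.64%). In inhibitory neurons the interval of knockout 1 overlapped both wildtype intervals, and that of knockout 2 overlapped neither. In astrocytes every wildtype interval overlapped every knockout interval, except for wildtype 2 and knockout 2. Thinned shares of Zfp808 in excitatory nuclei were 0.653% and 0.54% against 2.04% and 2.41%, and in oligodendrocytes 0.652% and 0.352% against 0.654% and 0.23%. They were 0.18% and 0.554% against 1.07% and 1.36% in inhibitory neurons, and 2.26% and 1.51% against 4.58% and 4.9% in astrocytes. The intervals cover counting error only. For Zfp934 the wildtype and knockout intervals in excitatory nuclei did not overlap.

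A test of the difference itself set each class against excitatory neurons. It called 0 of 123 members in astrocytes (6 at an unadjusted p under 0.05; percent called over all genes 0.0262 higher and 0.0785 lower) and 0 of 118 in microglia (4; 0.0696 and 0.0857). In oligodendrocytes 2 of 119 members had a lower effect (percent called 0.262 higher and 0.47 lower), and in precursors 1 of 120 (0.0592 and 0.108). The genotype effect on Zfp934 differed by -0.78 ± 0.20 on the log2 scale in oligodendrocytes from that in excitatory neurons (adjusted p = 0.0292); there it had 33.1 and 32.6 CPM in wildtype and 43.1 and 41.8 in knockout. For Zfp804a the difference was -0.92 ± 0.24 (adjusted p = 0.0353). Both calls were lost when any 1 of the 4 libraries was left out. Zfp808 differed in precursors by -1.88 ± 0.39 (adjusted p = 0.00177): its level there was 34 and 29.1 CPM in wildtype and 25.1 and 31.7 in knockout, from 13 to 21 UMIs, and the call was lost without wildtype 1.

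In wildtype alone, the members differed in the class where their CPM was highest. This was read over 103 members with at least 100 wildtype UMIs summed over 6 classes, with no floor in any single class. The highest class was microglia for 41, precursors for 24, oligodendrocytes for 14, astrocytes for 12, inhibitory neurons for 9 and excitatory neurons for 3. Microglial nuclei are shallow, with 760 to 882 UMIs in the median nucleus, so these values carry wide counting error. Picking the highest of noisy values favours classes with few UMIs. The same counts were not read over all genes, so they are not shown to be a trait of the members. Zfp804a and Zfp804b were the clearest neuronal members. Zfp804a had 456 and 415 CPM in wildtype inhibitory neurons against 129 and 128 in excitatory ones and a mean of 38.4 in oligodendrocytes. Zfp804b had 444 and 507 CPM in inhibitory and 218 and 217 in excitatory neurons, and a mean of 39.9 in oligodendrocytes. Zfp950 lay between means of 104 and 160 CPM in all 6 classes. Among the genes that rose in knockout, Zfp951 was highest in microglia, at 38.2 and 42.8 CPM in wildtype and 41.5 and 33.7 in knockout, beside 5.88 and 7.08 CPM in wildtype excitatory neurons. Zfp808 was highest in precursors (mean 31.5 CPM) and astrocytes (20.7), against 6.92 in excitatory neurons. Genes that rose in neurons were not all silent in other wildtype classes.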

How the data were processed

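Nuclear RNA from the cortex was measured by 10x 3′ single-nucleus sequencing in 4 libraries. The deposited files hold UMI counts per gene and barcode. The submitters' processing notes name Cell Ranger 7.1.0 as the authors' tool and mm10 as the build; whether introns, strand and multi-mapping reads were counted is not given in the sources used here. Barcodes under 500 UMIs, under 300 genes or over 5% mitochondrial UMIs were left out, 2656 doublets called by scrublet were removed, and scanpy 1.11.5 made 29 clusters (resolution 1, no member used). UMIs were summed per library and class, where each library had at least 30 nuclei. Genes were filtered (filterByExpr, minimum count 10), scaled by TMM and tested by edgeR 4.0.16 (R 4.3.3, quasi-likelihood, Benjamini-Hochberg over all genes tested, threshold 0.05); the code was tested on simulated data. Named genes were all called members, the 2 highest and the lowest of each genomic cluster, and the 6 with the highest wildtype CPM; others were chosen after their values were seen. The members and lists were chosen with earlier results of these data known. Alternatives were other scaling, DESeq2 1.42.0, no filter, a replicate block, each library left out, doublets kept, deeper nuclei, all nuclei and a 250 kb gap.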

Additional observations from a re-analysis of the deposited data

Results flagged for a closer look

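The genotype effect of 3 members differed between excitatory neurons and another class by a test of the difference itself (genotype by class term in edgeR, Benjamini-Hochberg over all genes tested). Zfp804a differed by -0.92 ± 0.24 in oligodendrocytes (adjusted p = 0.0353), with 39.6 and 37.2 CPM in wildtype and 18.6 and 18.5 in knockout there, and 129 and 128 against 127 and 102 CPM in excitatory neurons. Zfp934 differed by -0.78 ± 0.20 in oligodendrocytes (adjusted p = 0.0292), where it stood above wildtype in both knockouts by less than in excitatory neurons. Zfp808 differed by -1.88 ± 0.39 in oligodendrocyte precursors (adjusted p = 0.00177), where its genotypes overlapped. With any 1 library left out neither of the oligodendrocyte calls remained, and the precursor call was lost without wildtype 1. The 4 excitatory markers reached 539 to 764 CPM in oligodendrocytes; the part of free RNA in these differences was not tested.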

How the results depend on the processing

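In excitatory neurons the count of 13 higher members was 13 with RLE scaling, without TMM, with doublets kept and in deeper nuclei (all shared in each). It was 13 over all nuclei (11 shared; Zfp941 and Zfp975 lost, Zfp982 and Zfp991 gained), 14 with DESeq2 (12 shared), 9 without the filter (all shared) and 11 to 19 with 1 library left out; the count lower, 0, was 1 over all nuclei (Zfp703) and 0 to 2 with 1 left out. The lone library is then assumed to vary like the other genotype. In inhibitory neurons 4 became 2 with DESeq2, 2 without the filter and 1 to 11 with 1 left out. In astrocytes 0 became 2 without the filter, and in oligodendrocytes 1 became 0 with DESeq2 and 0 without the filter. In fibroblasts 1 became 0 with DESeq2. With 1 left out the count ran over 0 to 2 in the Meis2 and Pbx3 group and in oligodendrocytes, and over 0 to 1 in astrocytes, microglia and fibroblasts. The count of differing effects ran over 0 to 2 in inhibitory neurons (1 without the filter), 0 to 0 in oligodendrocytes and 0 to 1 in precursors. With gaps of at most 250 kb the chr4 cluster (summed log2 ratio 0.58 with 1 Mb) split into 3 parts, at 3.18 and 3.31 with 3 called genes each, and 0.23 with none and with Zfp933. The ratio was then 0.79 for chr7 (0.47) and 0.039 for the first chr8 cluster (-0.0061); without Zfp933, chosen after seeing the data, the chr4 ratio was 2.12.

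Replicate numbers are shared by the genotypes, and deviations of same-numbered libraries correlated at 0.82 in excitatory and 0.60 in inhibitory neurons, down to 0.07 in mural cells. The labels tie the numbers to no shared litter, batch or day, and there are only 2 pairs, so they are not taken as a pairing. The numbers coincide with the sex read from the RNA, so a block on the number is also a block on that sex. With the replicate block 23 members were higher and 3 lower (Zfp703, Zfp777 and Zfp956) in excitatory neurons. Over all genes the block called 1936 higher and 1342 lower, against 581 and 261 without it, so calls became more frequent in general. All 13 were among the 23, with Zfp771, Zfp799, Zfp820, Zfp846, Zfp850, Zfp943, Zfp982, Zfp984, Zfp991 and Zfp995 added, and the counts were 11 in inhibitory neurons, 2 in astrocytes, 3 in oligodendrocytes and 1 in microglia.

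Signs turned only in members that were not called. With each library left out in turn the log2 fold change ran from -0.082 to 0.11 for Zfp712, -0.88 to 0.0027 for Zfp747, -0.029 to 0.13 for Zfp772, -0.67 to 0.014 for Zfp773, -0.16 to 0.63 for Zfp775, -0.42 to 0.15 for Zfp781, -0.0535 to 0.0253 for Zfp809, -0.073 to 0.17 for Zfp869, -0.48 to 0.19 for Zfp882, -0.23 to 0.082 for Zfp954, -0.40 to 0.057 for Zfp961, -0.13 to 0.84 for Zfp968 and -0.23 to 0.35 for Zfp972. Over all nuclei it was 0.053 for Zfp781, -0.018 for Zfp866, 0.028 for Zfp882 and -0.14 for Zfp972. It was -0.0100 for Zfp712 with doublets kept and 0.019 for Zfp809 without TMM. The cause was not tested.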
